A study of Mus musculus with 8 samples.

Results

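The genes described here encode parts of the lysosome: the cathepsins, which are its proteases, a set of its membrane and lumenal proteins, and the subunits of the vacuolar proton pump (V-ATPase) that acidifies it. Members were taken by gene name, with a rule that was set when earlier results of these data were known. It covered Cts followed by a single letter, names that start with Atp6v, and Lamp1, Lamp2, Scarb2, Cd63, Npc1, Npc2 and Gaa, without pseudogenes. This took 47 of the 48709 genes in the table. They comprised 18 cathepsins, 7 membrane or lumenal proteins and 22 V-ATPase subunits, 13 of the V1 sector and 9 of the V0 sector. Polyadenylated RNA of whole gastrocnemius, a calf muscle, was sequenced in 8 libraries from C57BL/6 mice aged 16 weeks. The 4 libraries labelled GRKO (E to H) came from GR(i)skm-/- mice, which carry a floxed glucocorticoid receptor gene and Cre-ERT2 driven by the human skeletal actin (HSA) promoter. The 4 control libraries (A to D) came from mice with the floxed receptor gene. That promoter is active in muscle fibres, so other cells of the muscle would keep the receptor, and the sources used here do not name the agent given to activate Cre-ERT2. The comparison asks how transcripts of the muscle differ once its fibres lose the receptor.

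Lysosomes digest proteins, glycogen and lipids delivered by autophagy and endocytosis. The V-ATPase spends ATP in its V1 sector on the cytosolic face to drive protons through its V0 sector in the membrane, and the acid pH that results lets the cathepsins mature and work. In skeletal muscle, glucocorticoids are known to raise protein breakdown, and lysosomal proteases with autophagy are a route of it beside the proteasome. Lysosomal genes often share an E-box word in their promoters that is bound by the factor TFEB and its relatives.

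In 2 of the 8 libraries the transcript level of the targeted gene went against the label. Each result below is therefore that of the libraries as labelled. Nr3c1, the glucocorticoid receptor gene that was targeted, had levels of 87.1, 38.6, 96.7 and 42.8 CPM (counts scaled to library size with edgeR's TMM factors) in the GRKO-labelled libraries (E to H), against 83.2, 89.6, 84.7 and 90.0 CPM in the control libraries (A to D). Only F and H were below every control library, while E and G stood at the control level (log2 fold change -0.39 ± 0.31 SE, edgeR adjusted p = 0.452, two-sided exact permutation p = 0.371, where the smallest possible p is 0.0286). Counts cover the whole gene, and the deleted part is not named in the labels. Without E and G the log2 fold change of Nr3c1 was -1.09 (edgeR adjusted p = 0.00162). E and G had the highest Nr3c1 of their group, so this value follows from the choice of libraries and is no test. Libraries A, E and G also had the highest sums of B cell markers, at 30.9, 21.8 and 20.8 CPM, where the other 5 libraries had 0.920 to 5.16 CPM. The defining markers of myofibres were abundant throughout: the 12 on the list summed to 162607 to 187580 CPM in libraries labelled GRKO and to 176964 to 226629 CPM in control libraries. Library totals ran from 36680510 to 52200305 counts. In whole muscle, fewer cells of a type and less RNA per cell cannot be told apart.

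Few lysosomal genes passed the test, and those that did went in both directions. Of the 47 members, 35 had enough counts to be tested. Ctsc and Atp6v1a rose and Atp6v1b2 and Atp6v0e2 fell in the libraries labelled GRKO, while 31 did not pass (edgeR's quasi-likelihood test, Benjamini-Hochberg adjusted p under 0.05 over 14712 genes). The 4 calls are 11.4% of the members tested, and over all genes tested the share called was 8.45%, with 4.04% higher and 4.41% lower. The members' share was thus near the background. Of the 35, 10 had an unadjusted p under 0.05, and groups stayed apart without overlap in 7, where the share over all genes tested was 16.7%. The median log2 fold change was 0.0018 over the members, from -0.55 to 0.52 with 18 positive and 17 negative values, against -0.01 over all genes tested. The median size of a change was 0.12 on the log2 scale over the members and 0.17 over all genes tested. The DESeq2 Wald test called 5 members and limma-voom 6, the same 4 among them, where those tools called 14.3% and 12.7% of genes. With E and G left out no member passed (8 at an unadjusted p under 0.05), where 1.49% of genes did, and with the trend of each library on the GC content of transcripts removed only Lamp1 passed, where 4.64% of genes did.

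**Figure D1:**
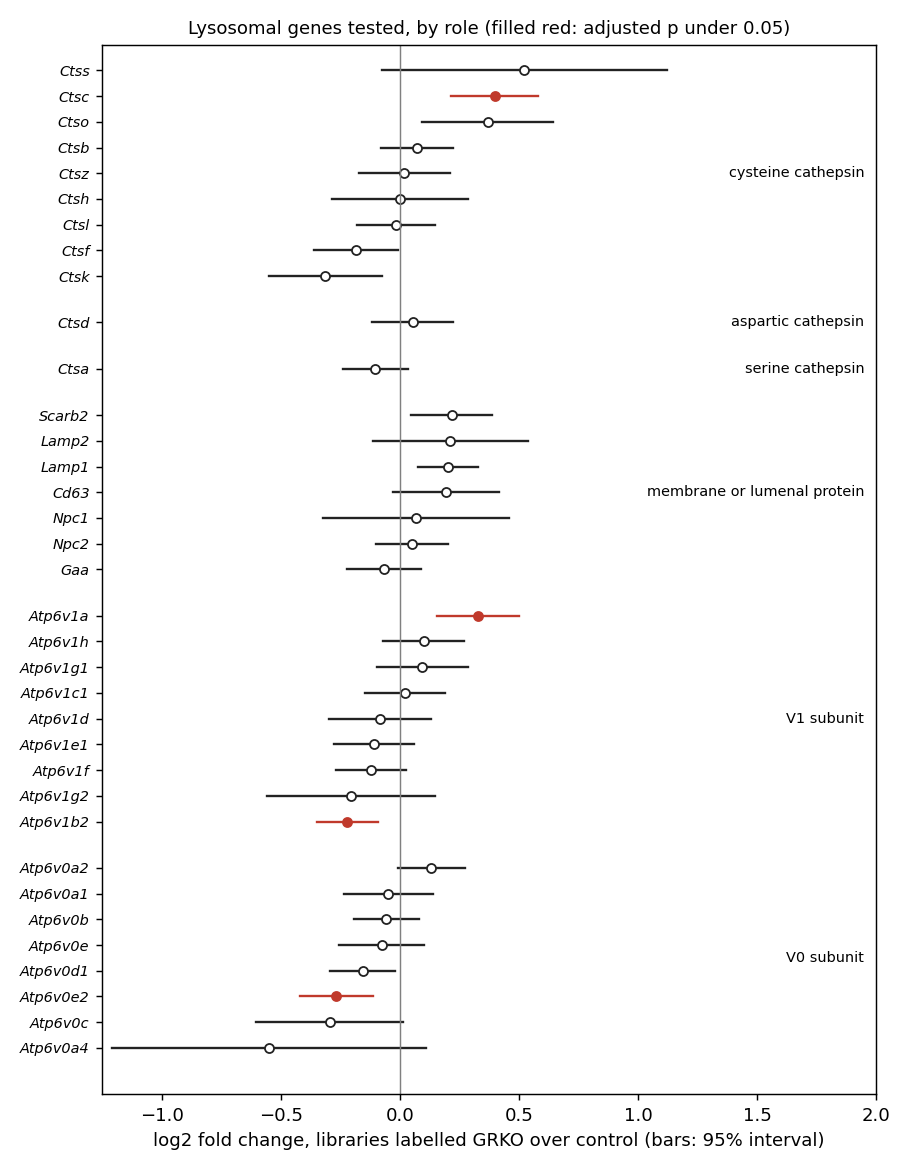
Log2 fold change of the 35 lysosomal genes tested, libraries labelled GRKO over control, by role, with bars for the 95% interval; filled red points passed the edgeR test at an adjusted p under 0.05. Points lie on both sides of 0 in most roles, 6 of the 7 membrane or lumenal proteins lie above it, and 7 of the 8 V0 subunits tested lie below it.

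The largest called rise was that of Ctsc (ENSMUSG00000030560, chr7:88278085-88310888, plus strand of mm10). It encodes cathepsin C, or dipeptidyl peptidase I, which trims the serine proteases stored in granules of mast cells, neutrophils and cytotoxic lymphocytes into their active form. Ctsc had 46.3, 44.6, 50.5 and 50.6 CPM in the GRKO-labelled libraries (E to H), against 33.0, 42.1, 34.8 and 35.6 CPM in the control libraries (A to D). The groups did not overlap, and control library B stood closest to the libraries labelled GRKO. Group means of 48.0 ± 3.02 and 36.4 ± 3.94 CPM (SD, n = 4 each) gave a log2 fold change of 0.40 ± 0.08 (SE, edgeR adjusted p = 0.0180). Its size held at 0.39 without E and G, where the call ended (edgeR adjusted p = 0.109), and it was 0.22 with the GC trend removed (0.0808). Leaving out G, A or C alone also ended the call (highest edgeR adjusted p = 0.0658).

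Atp6v1a (ENSMUSG00000052459, chr16:44085402-44139705, minus strand) encodes the catalytic A subunit, which binds and splits ATP in the V1 sector. Its level was 26.6, 26.1, 29.6 and 29.2 CPM in the GRKO-labelled libraries (E to H), against 19.5, 24.0, 22.8 and 22.6 CPM in the control libraries (A to D). Each library labelled GRKO was above each control library. The log2 fold change was 0.33 ± 0.08 (SE, edgeR adjusted p = 0.0303), from means of 27.9 ± 1.79 and 22.2 ± 1.90 CPM (SD, n = 4 each). Without E and G it was 0.32 (adjusted p = 0.144), with the GC trend removed it was 0.23 (0.0749), and leaving out G, H, A, C or D ended the call (highest 0.103).

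Its partner in the same catalytic ring moved the other way. Atp6v1b2 (ENSMUSG00000006273, chr8:69088646-69113711, plus strand) encodes the B subunit, which alternates with A in the ring and helps to form the nucleotide sites. It had 59.8, 54.5, 57.5 and 59.5 CPM in the GRKO-labelled libraries (E to H), against 65.2, 68.8, 69.7 and 65.9 CPM in the control libraries (A to D), so that all libraries labelled GRKO were below all control libraries. Group means of 57.8 ± 2.44 and 67.4 ± 2.21 CPM (SD, n = 4 each) gave a log2 fold change of -0.22 ± 0.06 (SE, edgeR adjusted p = 0.0419). Of the 4 calls, this one alone ended with every single library left out in turn (edgeR adjusted p between 0.0541 and 0.120). It also ended with scaling by library size alone (-0.15, 0.149), removing the GC trend (-0.18, 0.0810) and leaving out E and G (-0.24, 0.157).

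Because scaling acts alike on both genes of a library, the ratio of Atp6v1a to Atp6v1b2 does not depend on it. In CPM per kb of transcript, this ratio was 0.322, 0.348, 0.373 and 0.356 in the GRKO-labelled libraries (E to H), against 0.217, 0.253, 0.237 and 0.248 in the control libraries (A to D). The groups stood apart, with means of 0.350 ± 0.0212 and 0.239 ± 0.0159 (SD, n = 4 each). It was chosen after both genes' values were seen, so no test is given. A ratio shows unequal change, not which of the genes changed. Their transcripts differ in GC content, at 44.6% for Atp6v1a and 50.4% for Atp6v1b2, and of the other called members Ctsc was at 41.1% and Atp6v0e2 at 53.3%.

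Atp6v0e2 (ENSMUSG00000039347, chr6:48537615-48541801, plus strand) encodes a small e subunit of the V0 sector. Its values were 45.2, 40.2, 43.6 and 39.8 CPM in the GRKO-labelled libraries (E to H), against 46.9, 54.1, 52.8 and 49.2 CPM in the control libraries (A to D). The groups did not overlap, though library E lay close to control library A. The log2 fold change was -0.27 ± 0.07 (SE, edgeR adjusted p = 0.0410), with means of 42.2 ± 2.65 and 50.8 ± 3.28 CPM (SD, n = 4 each). Leaving out any library but E ended the call (highest adjusted p = 0.107), as did library size alone (-0.19, 0.121) and the GC trend removed (-0.18, 0.183), while without E and G the value was -0.34 (0.0874).

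**Figure D2:**
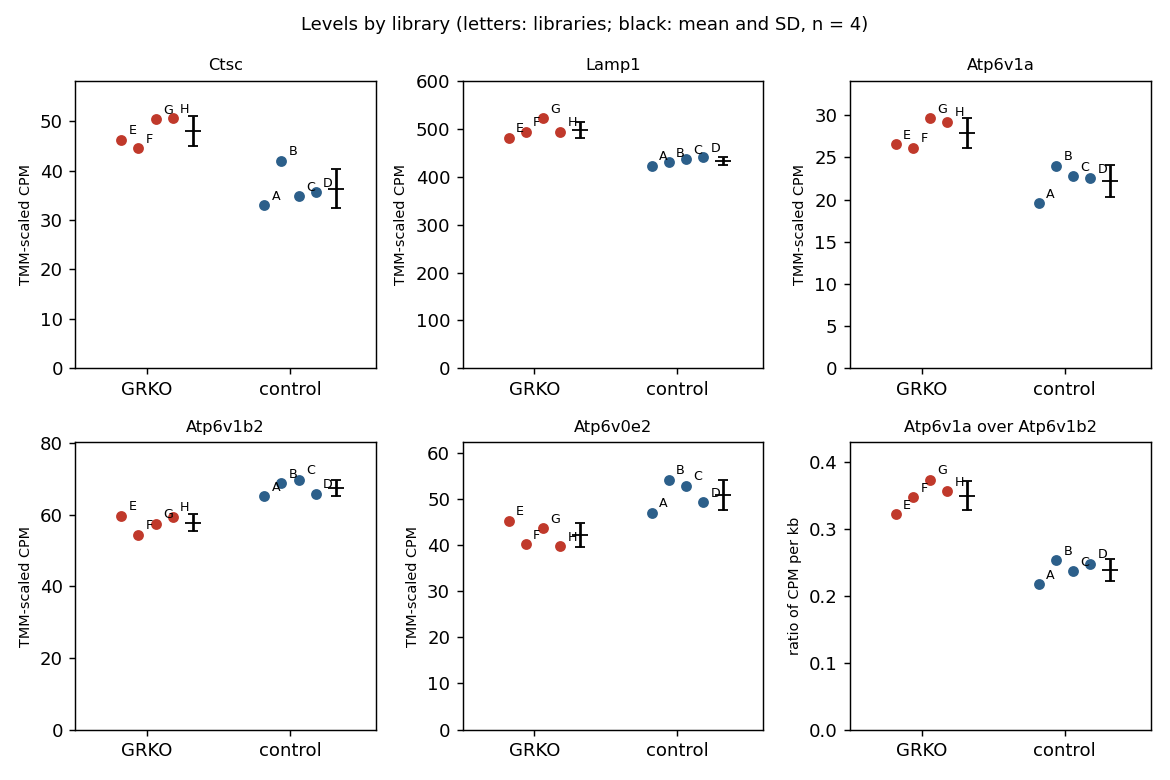
TMM-scaled CPM of the 4 called members and of Lamp1 in each library, and the ratio of Atp6v1a to Atp6v1b2 in CPM per kb; dots are libraries, black marks are the mean and SD of 4. In every panel the libraries labelled GRKO do not overlap with control, with Atp6v1b2 and Atp6v0e2 lower and the others higher.

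Stretches upstream of the start sites are shown for the called members that the promoter table holds, and for the cathepsin genes that carry the same E-box word as Atp6v1a, so that the words counted below can be read in place. They come from RefSeq on GRCm38.p6, the assembly of mm10, and run 5′ to 3′ on the gene's strand. For Ctsc the stretch is chr7:88277835-88278084 (plus strand), with the reverse complement of the word AGAACA, to which a single copy of the glucocorticoid receptor can bind, in capitals. For Atp6v1a it is chr16:44139306-44139461 (minus strand), for Ctsd chr7:142387908-142387937 (minus strand) and for Ctsa chr2:164833743-164833772 (plus strand), each with TCACGTGA in capitals. For Atp6v0e2 it is chr6:48537475-48537568 (plus strand), which holds none of these words and has no capitals.
Ctsc: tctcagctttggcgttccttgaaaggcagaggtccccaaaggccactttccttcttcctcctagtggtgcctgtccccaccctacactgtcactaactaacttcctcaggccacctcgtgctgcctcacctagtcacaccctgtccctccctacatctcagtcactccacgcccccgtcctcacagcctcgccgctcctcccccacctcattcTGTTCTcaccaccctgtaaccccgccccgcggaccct
Atp6v1a: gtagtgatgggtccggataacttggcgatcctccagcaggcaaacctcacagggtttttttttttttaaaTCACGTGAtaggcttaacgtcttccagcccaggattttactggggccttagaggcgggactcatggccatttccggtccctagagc
Ctsd: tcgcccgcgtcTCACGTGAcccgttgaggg
Ctsa: gaacaatgagcaaactgTCACGTGAtgcag
Atp6v0e2: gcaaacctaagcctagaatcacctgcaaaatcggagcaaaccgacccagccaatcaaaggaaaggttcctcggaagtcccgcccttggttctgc
In Ctsd and Ctsa the word lies within an annotated exon, so only its 30-base surroundings are shown. The Atp6v1a stretch lies between annotated exons of that gene. The word begins 132 bases before the RefSeq start in Atp6v1a, 99 in Ctsd and 13 in Ctsa. The table gave 250 bases before the start for 36 of the 47 members, Atp6v1b2 not among them. These genes had 40 windows, and a gene was counted if any of its windows held the word. The shares over all are per window, so the 2 measures differ. The palindromic E-box core CACGTG stood in 8 of these 36 genes (Atp6v0b, Atp6v1a, Ctsa, Ctsd, Ctsf, Ctsl, Gaa and Lamp1), which is 22.2%, and in 6.02% of all 32851 windows of the table. The longer TCACGTGA, which contains the core, stood in 3 of 36 (8.33%) and in 0.785% of all windows. Both strands were searched for AGAACA, which occurred in 6 of 36 member genes (Atp6v0b, Ctsa, Ctsc, Ctsk, Ctss and Lamp2; 16.7%) and in 16.1% of all windows. The full glucocorticoid response element, 2 such words on opposite strands with 3 bases between them, was in none of the 36 and in 0.00913% of all windows. Of the 8 genes with the core, Atp6v1a passed the test and the other 7 did not.

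None of the abundant cathepsins passed the test. Of the 18, 11 were tested, Ctsc rose, none fell and 10 did not pass. The median log2 fold change of the 11 was 0.02. In CPM per kb, levels followed the order Ctsd, Ctsb, Ctsl and then Ctsz, with group means of 171 and 165 for Ctsd, 67.8 and 64.5 for Ctsb, 55.1 and 55.8 for Ctsl, and 20.7 and 20.4 for Ctsz (libraries labelled GRKO and control). Ctsb and Ctsl thus lay near each other, with Ctsd well above. All 18 summed to 1042, 937, 1004 and 999 CPM in the GRKO-labelled libraries (E to H), against 962, 954, 950 and 974 CPM in the control libraries (A to D), between 0.0937% and 0.104% of scaled counts. Library F was below and the other libraries labelled GRKO above all control libraries in this sum.

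Ctsd encodes the main aspartic protease of the lysosome. It had 382, 341, 369 and 362 CPM in the GRKO-labelled libraries (E to H), against 368, 305, 352 and 377 CPM in the control libraries (A to D), and the groups overlapped. A value of 0.05 ± 0.08 on the log2 scale (SE, edgeR adjusted p = 0.689) had a 95% interval of -0.12 to 0.22. Ctsb, a cysteine protease that acts as both endopeptidase and carboxypeptidase, had 329, 299, 323 and 334 CPM in the GRKO-labelled libraries (E to H), against 295, 334, 293 and 301 CPM in the control libraries (A to D). Here control library B was as high as H and F was as low as the remaining control libraries (0.07 ± 0.07, 95% interval -0.08 to 0.22, edgeR adjusted p = 0.530). Of the exon bases of Ctsb, 12.8% overlap Fdft1 on the opposite strand, and reads of both genes would be mixed in an unstranded count. Ctsl, an endopeptidase whose transcript is known to rise in several kinds of muscle wasting in rodents, ranged over 102 to 121 CPM in libraries labelled GRKO and over 103 to 118 CPM in control libraries (-0.02 ± 0.07, 95% interval -0.18 to 0.15).

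Ctsa, the serine carboxypeptidase that also protects β-galactosidase and neuraminidase in the lysosome, had 72.4, 65.8, 67.1 and 66.0 CPM in the GRKO-labelled libraries (E to H), against 75.0, 68.5, 76.6 and 71.4 CPM in the control libraries (A to D). Library E overlapped with control and the value did not pass (-0.10 ± 0.06, edgeR adjusted p = 0.310). Exons of Pltp and Neurl2 on the opposite strand cover 10.5% and 6.87% of its exon bases. Ctsk, the collagen-cleaving cathepsin known best from osteoclasts and fibroblasts, had 5.26, 4.97, 4.79 and 5.79 CPM in the GRKO-labelled libraries (E to H), against 6.23, 6.10, 6.02 and 7.50 CPM in the control libraries (A to D). These groups did not overlap, but the log2 fold change of -0.31 ± 0.11 did not pass (edgeR adjusted p = 0.0951). Ctso, a little studied cysteine cathepsin, had 9.98, 11.8, 11.5 and 11.7 CPM in the GRKO-labelled libraries (E to H), against 6.96, 9.22, 7.97 and 10.7 CPM in the control libraries (A to D) (0.37 ± 0.12, edgeR adjusted p = 0.0896), with E below control library D. The remaining tested cysteine cathepsins Ctsf, Ctsh and Ctsz had log2 fold changes from -0.18 to 0.02 with edgeR adjusted p from 0.168 up.

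Ctss and Ctsw were highest in libraries E, G and A. Ctss, which cuts the invariant chain in antigen-presenting cells, had the largest value among the cathepsins at 0.52 ± 0.26 on the log2 scale and did not pass (edgeR adjusted p = 0.239). Without E and G it was 0.20, below Ctso (0.43) and Ctsc (0.39). Levels of Ctss were 9.49, 6.05, 9.05 and 6.20 CPM in the GRKO-labelled libraries (E to H), against 7.83, 4.72, 3.15 and 5.70 CPM in the control libraries (A to D). The highest 3 were E, G and A, the libraries with the most B cell markers. Ctsw, made by natural killer cells and cytotoxic T cells, was too low to be tested, with 32, 7, 25 and 0 counts in the GRKO-labelled libraries (E to H), against 27, 4, 1 and 1 counts in the control libraries (A to D). The T and NK cell markers summed to 10.1, 1.40, 9.67 and 0.614 CPM in the GRKO-labelled libraries (E to H), against 9.49, 0.711, 0.500 and 1.43 CPM in the control libraries (A to D), high in the same 3 libraries as Ctsw. Ctsg, a serine protease of neutrophil granules, had 4 and 1 counts in all over the libraries labelled GRKO and the control libraries, and Ctse, an aspartic protease best known from stomach and immune cells, had 6 and 9. Ctsj, Ctsm, Ctsq and Ctsr, known from the rodent placenta, had no count in any library, and a count of 0 allows up to 3 counts, which is 0.0559 to 0.0842 CPM depending on the library (counting error only).

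Some markers of mast cells and macrophages rose beside Ctsc, and their part in its rise was not tested. The 15 macrophage markers, none at 0 in all libraries, summed to 158, 114, 151 and 156 CPM in the GRKO-labelled libraries (E to H), against 108, 111, 80.9 and 131 CPM in the control libraries (A to D), and 3 of the 15 rose (Adgre1, Cd163 and Cd14). The 6 mast cell markers summed to 18.7, 14.5, 16.9 and 12.9 CPM in the GRKO-labelled libraries (E to H), against 7.21, 11.8, 6.20 and 8.14 CPM in the control libraries (A to D), and 4 of the 5 tested rose. Mast cell sums did not overlap between the groups, and macrophage sums did, through library F and control library D. B cell, T and NK cell and neutrophil markers held no call (edgeR; 0 of 11 tested at an unadjusted p under 0.05, and 0 by DESeq2 and limma-voom). Among the osteoclast markers 0 of 5 passed (0 at an unadjusted p under 0.05, and 0 by DESeq2 and limma-voom), with sums of 6.62 to 7.62 CPM in libraries labelled GRKO and 2.71 to 6.79 CPM in control libraries. All 8 Schwann cell markers, 5 of 8 smooth muscle and pericyte markers and 2 of 12 myofibre markers fell, while 2 of 10 fibroblast markers rose and 1 fell, and 1 of 10 endothelial markers rose and 2 fell. Over all genes tested, 4.04% were called higher and 4.41% lower. Without E and G, where 1.49% of all genes passed, 7 of the 8 Schwann cell and 3 of the 8 smooth muscle and pericyte markers still passed. No macrophage, mast cell, fibroblast, endothelial or myofibre marker did, though 4 of 15, 4 of 5, 6 of 10, 6 of 10 and 4 of 12 had an unadjusted p under 0.05 (edgeR). With the GC trend removed, 8 Schwann cell, 3 smooth muscle and pericyte, 3 macrophage, 4 mast cell, 1 fibroblast, 2 endothelial and 0 myofibre markers passed, where 4.64% of all genes did. The part of these cell types in the values of the members was not tested.

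**Figure D3:**
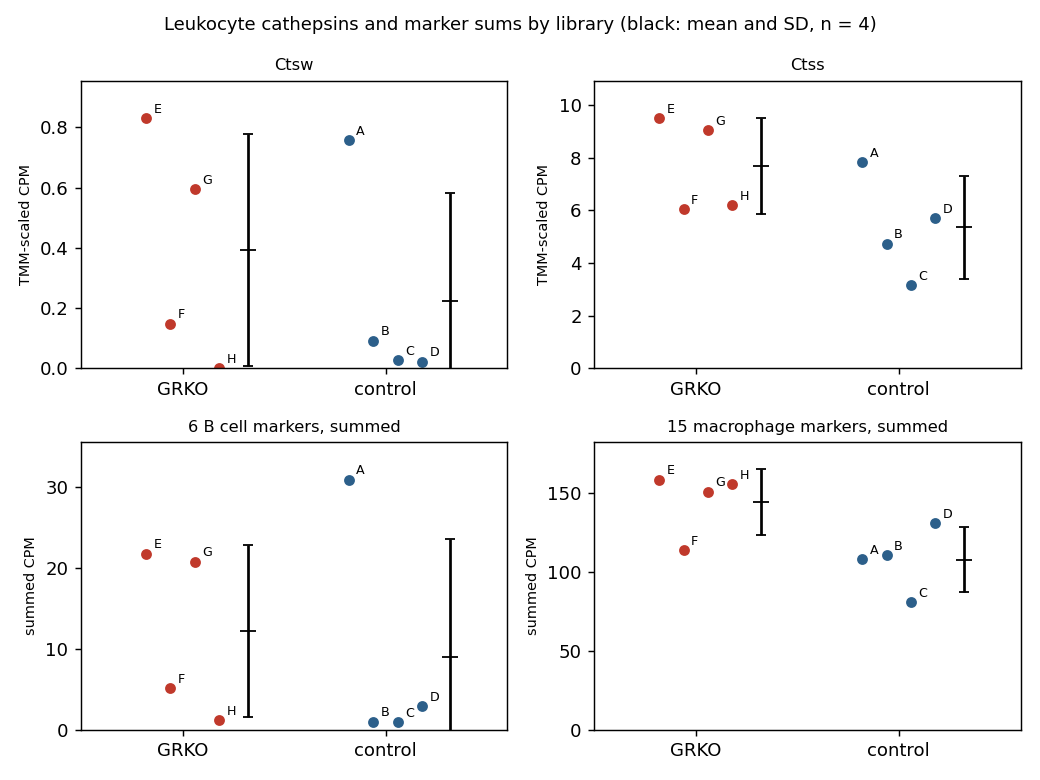
TMM-scaled CPM of Ctsw and Ctss and the summed CPM of 6 B cell and 15 macrophage markers in each library; dots are libraries, black marks are the mean and SD of 4. Libraries E, G and A are the highest 3 for Ctsw, for Ctss and for the B cell sum, whatever their label, and the macrophage sum is lowest in control library C.

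The membrane and lumenal proteins all had enough counts, and none of the 7 passed by edgeR, with 2 at an unadjusted p under 0.05, 1 called by DESeq2 and 2 by limma-voom. Their median log2 fold change was 0.19, and 6 of 7 values were positive. The 7 summed to 1213, 1183, 1265 and 1192 CPM in the GRKO-labelled libraries (E to H), against 1089, 1101, 1120 and 1175 CPM in the control libraries (A to D). These sums did not overlap, with F only just above D. Lamp1 made up the largest part of each sum, and each of the other genes overlapped between the groups.

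Lamp1 (ENSMUSG00000031447, chr8:13159161-13175338, plus strand), a heavily glycosylated protein that lines the lysosomal membrane, was the most abundant member per length, at 224 and 194 CPM per kb in the group means. It had 482, 494, 522 and 494 CPM in the GRKO-labelled libraries (E to H), against 423, 431, 437 and 441 CPM in the control libraries (A to D). The groups did not overlap and the spread within each was small, with means of 498 ± 16.9 and 433 ± 7.71 CPM (SD, n = 4 each). The log2 fold change of 0.20 ± 0.06 just missed the threshold (SE, edgeR adjusted p = 0.0546). It passed under the DESeq2 Wald test (adjusted p = 0.000948) and limma-voom (0.0305). By edgeR it passed with DESeq2 size factors (adjusted p = 0.0491), library size alone (0.0249), a stricter filter (0.0443) and the GC trend removed (0.27, 0.0252). It did not pass without E and G (0.19, 0.237) or with any single library left out (edgeR adjusted p between 0.0516 and 0.166). Nor did it pass with no filter (0.0882), upper-quartile scaling (0.0543) or the 20 most abundant genes left out (0.0533). Exons of Grtp1 on the opposite strand cover 9.31% of its exon bases.

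Scarb2, whose product LIMP-2 carries glucocerebrosidase to the lysosome, had 136, 138, 141 and 158 CPM in the GRKO-labelled libraries (E to H), against 115, 139, 120 and 120 CPM in the control libraries (A to D). Control library B lay within the range of the other group (0.22 ± 0.08, edgeR adjusted p = 0.101, 0.0448 by limma-voom). Lamp2, the partner of Lamp1 that is also needed for chaperone-mediated autophagy, ranged over 67.1 to 88.1 CPM in libraries labelled GRKO and 52.2 to 81.1 CPM in control libraries (0.21 ± 0.15, adjusted p = 0.378), and its value was -0.02 with the GC trend removed. Cd63, a tetraspanin of late endosomes and exosomes, had 40.1 to 51.1 CPM in libraries labelled GRKO and 37.2 to 48.7 CPM in control libraries (0.19 ± 0.10, adjusted p = 0.239). Gaa, the acid α-glucosidase that digests lysosomal glycogen and is lacking in Pompe disease, had 344, 295, 325 and 299 CPM in the GRKO-labelled libraries (E to H), against 335, 307, 344 and 336 CPM in the control libraries (A to D), with a 95% interval of -0.22 to 0.09 for its log2 fold change. Npc1 and Npc2, which together move cholesterol out of the lysosome, had log2 fold changes of 0.07 ± 0.17 and 0.05 ± 0.07, with Npc1 at -0.12 without E and G. Npc1 ranged over 68.8 to 105 CPM in libraries labelled GRKO and 66.7 to 112 CPM in control libraries.

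**Figure D4:**
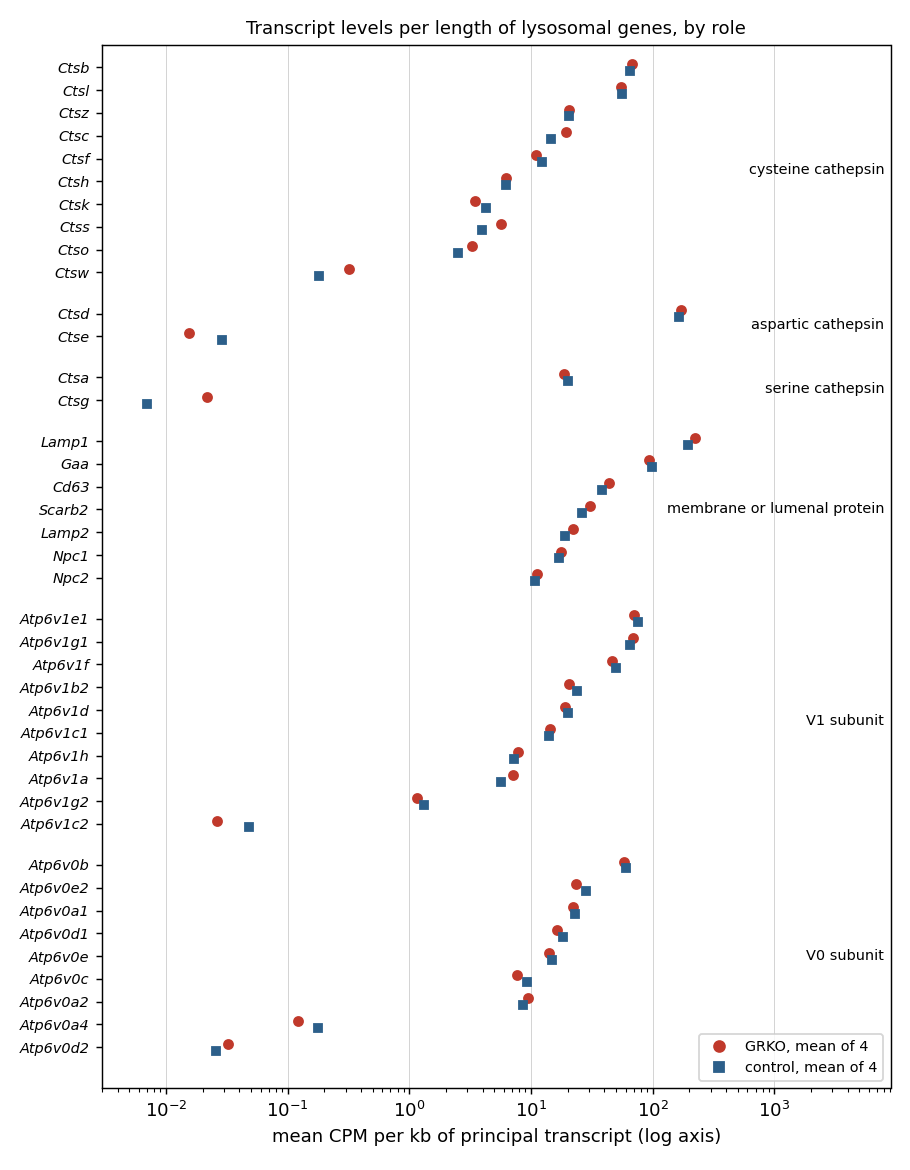
Mean CPM per kb of principal transcript on a log axis for the members with counts in both groups, by role, in the libraries labelled GRKO (red circles) and control (blue squares), 4 libraries each. Lamp1, Ctsd and Gaa lead. Member subunit forms known from kidney, bone or testis lie below 1 CPM per kb or are absent. Tcirg1, the a form of osteoclasts, was not taken by the name rule and is not shown.

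The V-ATPase is built from subunits of which several come in tissue forms. For the B, C, d, E and G subunits the gastrocnemius libraries held mainly the widely expressed form. Of the 22 subunit genes 17 were tested: Atp6v1a rose, Atp6v1b2 and Atp6v0e2 fell and 14 did not pass. In CPM per kb, Atp6v1b2 made up 100% of the B subunit transcripts in every library, since Atp6v1b1, the form of kidney intercalated cells, had no count. Atp6v1c1 made up 99.8% and 99.6% of the C subunit, Atp6v0d1 99.8% and 99.9% of the d subunit against the osteoclast form Atp6v0d2, and Atp6v1g1 98.3% and 98.0% of the G subunit against the neuronal form Atp6v1g2 (means of the libraries labelled GRKO and of control). Atp6v1g3 had no count, and Atp6v1e2, known from testis, had 1 count, in library F.

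Only the a and e subunits were a mixture. Of the a subunit, which anchors the stator and directs the pump to its membrane, Atp6v0a1 made up 64.6% ± 0.751 in libraries labelled GRKO and 65.2% ± 4.30 in control libraries (SD, n = 4 each), and Atp6v0a2, the form of the Golgi, 27.4% ± 0.453 and 24.6% ± 3.05. Tcirg1, the a form of osteoclasts, which the name rule did not take, made up 7.59% ± 0.693 and 9.69% ± 1.29. Of the e subunit, Atp6v0e2 made up 62.6%, 63.4%, 63.1% and 61.1% in the GRKO-labelled libraries (E to H), against 63.9%, 69.1%, 64.7% and 64.6% in the control libraries (A to D), with the rest from Atp6v0e. Each of these shares was lower than each control share, by under 1 percentage point at the closest, and control library B stood above the others. Atp6v0e itself averaged 11.6 ± 0.737 and 12.3 ± 0.876 CPM (-0.08 ± 0.08, edgeR adjusted p = 0.579).

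In the V1 sector, 7 of the 9 subunit genes tested did not pass, and the median log2 fold change was -0.08. Atp6v1e1, a stator subunit and the most abundant of the sector per length at 70.6 and 76.2 CPM per kb, had 95.8, 100, 91.1 and 83.7 CPM in the GRKO-labelled libraries (E to H), against 104, 93.2, 108 and 94.3 CPM in the control libraries (A to D). These ranges overlapped (-0.11 ± 0.08, edgeR adjusted p = 0.382). The rotor subunits Atp6v1d and Atp6v1f had log2 fold changes of -0.08 ± 0.10 and -0.12 ± 0.07, the stator subunits Atp6v1g1 and Atp6v1g2 0.09 ± 0.09 and -0.20 ± 0.16, and Atp6v1c1 and Atp6v1h, which tie the sectors together, 0.02 ± 0.08 and 0.10 ± 0.08, which were -0.08 and -0.16 with the GC trend removed. Atp6v1a was among the lowest of the sector per length, at 7.16 and 5.70 CPM per kb, while the pump uses A and B in equal number and Atp6v1b2 stood at 20.5 and 23.9 CPM per kb. The sector's 13 genes summed to 415, 405, 413 and 388 CPM in the GRKO-labelled libraries (E to H), against 421, 393, 446 and 410 CPM in the control libraries (A to D), and these sums overlapped.

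In the V0 sector, 8 of 9 genes were tested, 7 had negative values and the median log2 fold change was -0.12, with Atp6v0e2 the only call. With library size alone as the scaling the median was -0.04, and no V0 or V1 gene fell. Atp6v0b, of the proton-carrying ring, was the most abundant per length and had 61.1, 57.9, 58.3 and 56.4 CPM in the GRKO-labelled libraries (E to H), against 60.1, 56.2, 62.4 and 64.4 CPM in the control libraries (A to D). Its value of -0.06 ± 0.06 did not pass (edgeR adjusted p = 0.585) and was positive under library size alone (0.02) and with the GC trend removed (0.07). Atp6v0d1, which couples the ring to the rotor, had 26.4, 24.7, 27.9 and 27.9 CPM in the GRKO-labelled libraries (E to H), against 29.0, 30.1, 30.2 and 30.0 CPM in the control libraries (A to D). Its groups did not overlap, and at -0.16 ± 0.06 it did not pass (edgeR adjusted p = 0.136).

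The largest value of the sector belonged to its rarest tested gene. Atp6v0a4, the a form of kidney intercalated cells, had 0.415, 0.381, 0.405 and 0.410 CPM in the GRKO-labelled libraries (E to H), against 0.449, 0.757, 0.342 and 0.792 CPM in the control libraries (A to D). Control libraries B and D were high and C was below every library labelled GRKO, and the log2 fold change of -0.55 ± 0.30 did not pass (edgeR adjusted p = 0.262). Atp6v0c, the main ring subunit, had 7.30 to 11.1 CPM in libraries labelled GRKO and 9.15 to 12.1 CPM in control libraries (-0.30 ± 0.14, adjusted p = 0.200), and its pseudogene Atp6v0c-ps1, whose reads may be split with it, had 7 counts over the GRKO-labelled libraries and 10 over the control libraries. Atp6v0a1 and Atp6v0a2 were at -0.05 ± 0.09 and 0.13 ± 0.06, and neither passed.

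Genes around these members were counted on 6 lists of lysosomal partners. Calls were few in each, and over all genes tested the share called was 8.45%. None of the 4 cathepsin inhibitors tested passed (edgeR; 0 at an unadjusted p under 0.05, and 0 by DESeq2 and limma-voom). The smallest p among them belonged to Cst3, which encodes cystatin C, at -0.18 ± 0.08 (adjusted p = 0.193), followed by Serpinb6a at -0.25 (adjusted p = 0.470). Of 43 other lysosomal hydrolases and activators tested, edgeR called none higher, where DESeq2 called 2, and Idua (-0.47 ± 0.10, edgeR adjusted p = 0.0202) and Aga (-0.49 ± 0.11, 0.0234) fell, with a median of -0.01. They encode α-L-iduronidase, which degrades glycosaminoglycans, and the enzyme that cleaves asparagine-linked sugars.

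Among V-ATPase parts and partners outside the name rule, 2 of 15 rose and 1 fell, where the share called over all genes tested was 8.45%. The list was chosen with earlier results known. Of the 15, 1 was called without E and G and 1 with the GC trend removed. Oxr1, a TLDc-domain protein of a family that binds the V1 sector, had 66.3, 68.5, 74.7 and 82.1 CPM in the GRKO-labelled libraries (E to H), against 48.7, 53.0, 47.1 and 47.9 CPM in the control libraries (A to D). The groups stood well apart, and the log2 fold change was 0.57 ± 0.08 (SE, edgeR adjusted p = 0.00292). Tbc1d24, of the same domain family, was at 0.33 ± 0.09 (0.0424), and Tcirg1 fell by 0.38 ± 0.10 on the log2 scale (edgeR adjusted p = 0.0452), with 6.09 to 7.80 CPM in the GRKO-labelled libraries and 8.20 to 9.88 CPM in the control libraries.

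Of 23 regulators of lysosomal genes tested, 2 rose and none was called lower by edgeR, DESeq2 or limma-voom. Fnip1, which works with folliculin on the lysosome to restrain TFEB and its relatives, had 66.1, 82.2, 81.4 and 94.6 CPM in the GRKO-labelled libraries (E to H), against 52.4, 61.6, 55.2 and 54.2 CPM in the control libraries (A to D) (0.54 ± 0.10, edgeR adjusted p = 0.0118). Mitf, a relative of TFEB, was higher at 0.33 ± 0.08 (0.0353). Among 32 genes of mTORC1 recruitment at the lysosome, the GTPase gene Rragc rose (0.23, adjusted p = 0.0461) and Kxd1, a subunit of the BORC complex that positions lysosomes, fell, with 36.8, 35.3, 34.8 and 31.2 CPM in the GRKO-labelled libraries (E to H), against 51.5, 43.6, 55.4 and 44.6 CPM in the control libraries (A to D) (-0.50 ± 0.09, edgeR adjusted p = 0.00991).

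Of 33 genes of sorting to the lysosome, Vps33b and Ap1m1 fell by edgeR and none was called higher, where DESeq2 called 1 higher and 5 lower. Vps33b, which acts in protein sorting from endosomes, had the largest called change on the 6 lists, with 2.98, 3.09, 2.60 and 2.77 CPM in the GRKO-labelled libraries (E to H), against 5.81, 5.83, 5.55 and 5.50 CPM in the control libraries (A to D). The change on the log2 scale was -0.99 ± 0.10 (SE, edgeR adjusted p = 0.000658), and all values of a group lay close together. Ap1m1, a subunit of the AP-1 adaptor, was at -0.24 (adjusted p = 0.0482). Of the 11 genes called on the 6 lists, Oxr1, Fnip1, Kxd1 and Vps33b kept their call with any single library left out (highest edgeR adjusted p = 0.0142, 0.0423, 0.0386 and 0.00436), and each of the other 7 lost it without at least 1 library (highest adjusted p for each between 0.0543 and 0.142). Without E and G, Idua (-0.63), Oxr1 (0.62), Fnip1 (0.66) and Vps33b (-0.95) still passed, and with the GC trend removed Aga (-0.58), Oxr1 (0.45), Fnip1 (0.29), Kxd1 (-0.39) and Vps33b (-0.93) did.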

How the data were processed

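Base calls were converted with bcl2fastq 2.17.1.14, reads aligned to mm10 with TopHat 2 and counted with HOMER, and genes tested with edgeR and DESeq, per the series' design text and the submitters' processing notes. Library preparation used a stranded dUTP kit and 700 ng of total RNA, per the labels' protocols. Neither the annotation release nor the use of strand in counting is given in the sources used here. What the authors deposited are raw read counts per gene, not normalised, 36680510 to 52200305 per library. Columns were placed in groups by their names, whose numbers occur in no label, and libraries are lettered by column. Separate mice are not stated for the libraries, and p-values therefore measure the spread between libraries. Within groups no pair came closer than a chi-square per degree of freedom of 13.12, so none was a copy within sampling noise.

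From the counts, filterByExpr (minimum count 10, minimum total 15) kept 14712 genes. They were scaled by TMM and tested with edgeR 4.0.16 (robust quasi-likelihood, with limma 3.58.1 in R 4.3.3), with Benjamini-Hochberg adjustment over all of them. Log2 fold changes are GRKO over control, the SE divides their size by the root of F, and 95% intervals use the t quantile at the test's total degrees of freedom, with n = 4 per group. CPM per kb divides TMM-scaled CPM by the length of the principal coding transcript in GENCODE M21 (GRCm38, which is mm10), the source of coordinates, GC content and exon overlaps too. Limits for 0 counts cover counting error only, the intervals of fold changes cover the spread between libraries, and depth does not limit the precision of the abundant genes.

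The members and lists were chosen with earlier results of these data known. Named genes are members past the threshold, the most abundant and the most changed tested member of each role, and on each list up to 4 called genes by size of change or, with none called, the 2 with the smallest p. A list of other lysosomal membrane proteins is not reported here. Further members are given so that all are accounted for. Alternatives were scaling by DESeq2 size factors, by upper quartiles, by library size alone or without the 20 most abundant genes, no low-count filter or a stricter one (at least 1 CPM in 4 libraries), the Wald test of DESeq2 1.42.0, limma-voom, and each library left out. Fits without E and G, without A, E and G, and with each library's GC trend removed (lowess with a span of 0.3) were added after seeing the data.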

Additional observations from a re-analysis of the deposited data

Results flagged for a closer look

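Within the groups of 4 libraries, 5 values lay far from the other 3 of their group by Dixon's ratio of gap to range, of 96 groups checked, where chance gives about 1 in 20, or 4.8. Ctso was at 9.98 CPM in library E labelled GRKO, with the nearest of its group at 11.5 CPM. Control library D was high for Ctsk, at 7.50 CPM with the nearest at 6.23, for Cd63, at 48.7 CPM with the nearest at 38.7, and for Idua, at 14.8 CPM with the nearest at 12.8. Control library A was low for Atp6v0d1, at 29.0 CPM with the nearest at 30.0.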

How the results depend on the processing

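The count of genes called over all genes was 1243, and it was 2026 by the DESeq2 Wald test, 1871 by limma-voom, 373 (without G) to 1794 (without B) with each library left out in turn, 226 without E and G, 48 without A, E and G, and 683 with the GC trend removed. Of the members 4 were called, 2 higher and 2 lower. With no filter 2 were called and none was lower. With library size alone none was lower, and limma-voom called 4 higher. Leaving out a library gave 0 (without G, A or C) to 3 called members, 0 to 3 higher and 0 to 1 lower. No member passed without E and G or without A, E and G, and with the GC trend removed 1 did, higher.

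Median log2 fold changes under library size alone were 0.0934 for the cathepsins, 0.266 for the membrane and lumenal proteins, -0.0080 for V1, -0.0413 for V0 and 0.0702 for all members, as that scaling moved the share of higher calls over all genes to 69.8%, against 47.8% with TMM. With a library left out they ran from -0.0368 to 0.0829 for the cathepsins, 0.102 to 0.217 for the membrane and lumenal proteins, -0.134 to -0.0310 for V1, -0.134 to -0.0874 for V0 and -0.0525 to 0.0226 for all members. Without E and G the cathepsins were at -0.0670 and all members at -0.0885. Without A, E and G the cathepsins were at -0.0538, V0 at -0.164 and all members at -0.0901. With the GC trend removed the cathepsins were at 0.0802 and the membrane and lumenal proteins at 0.108. Nr3c1 was at -0.63 to -0.20 with a library left out, -1.09 without E and G and -1.11 without A, E and G, and passed in the last 2. Because E and G had the highest Nr3c1 of their group, those 2 results follow from the choice of libraries and are no test.

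Of 493 values of 26 named genes under the alternatives, 371 kept direction and side of the threshold, 109 lost the call, 9 gained it and 4 changed sign. The last were Ctsd without B (-0.00044, in a range up to 0.0909 over the libraries left out), Ctsa with the GC trend removed (0.0055) and Atp6v0b with library size alone (0.0167) and with the GC trend removed (0.0675). Of the 35 members tested, 13 changed sign under at least 1 alternative, none of them called. The cause of these changes was not tested. No paired analysis was possible because the replicate numbers of the labels cannot be tied to the columns.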
